A study of Mus musculus with 36 samples.

Results

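The 10 genes described here, Cdkn1a, Mdm2, Bax, Ccng1, Phlda3, Gdf15, Sesn2, Trp53inp1, Eda2r and Bbc3, are transcriptional targets of the tumor suppressor p53. They were chosen by symbol as rows of both count tables of the study, one for female and one for male mice, and all 10 were found among the 18691 gene names in either table. Left lung RNA was sequenced from 36 wild-type C57BL/6 mice, young adults at the first dose, with 3 mice in each of 12 groups of sex and treatment. The control was saline, and the exposures were oil alone, each dispersant alone (Corexit 9500 or Corexit 9527) and each mixed with oil (9500+oil or 9527+oil), dosed at 0.1 WAF on days 0, 7 and again on 13, with the lungs taken on day 14. The oil was crude oil of the Macondo (MC252) well, and the Corexits are dispersants used on oil spills. The sample labels give the route as intratracheal instillation of a water-accommodated fraction, whereas the methods of the study give oropharyngeal aspiration of a saline-accommodated fraction. In whole lung, fewer cells of a type and less RNA per cell cannot be told apart.

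The protein p53 is kept low in unstressed cells, because Mdm2, itself a p53 target, marks it for degradation. After DNA damage, kinases such as Atm and Chek1 stabilize p53, which binds its response element near target genes and raises their transcription. The products stop the cell cycle, repair damage, restrain metabolism or start apoptosis, and the amount of Cdkn1a mRNA is a common readout of the response. A p53 response element holds a pair of decamers, each of which binds 2 subunits of the p53 tetramer. The decamer was searched on the gene's strand (the motif reads alike on both strands) in RefSeq promoter windows of build GRCm38.p6, from 250 bases before to 50 bases after a transcription start. It was found in 8.36% of all 32851 windows, and a pair of decamers at most 13 bases apart in 24 windows (0.073%). Of the 9 members with a window, 4 held the decamer and 1, Cdkn1a, held the pair. These 4 sequences are shown because they hold a decamer, which in Mdm2, Bax and Ccng1 is a single one and not the pair of a response element, with the decamer in capitals and only bases before the transcription start.
Cdkn1a, chr17:29090891-29090952, plus strand: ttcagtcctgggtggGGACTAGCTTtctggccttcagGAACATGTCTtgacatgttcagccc
Mdm2, chr10:117710920-117710959, minus strand: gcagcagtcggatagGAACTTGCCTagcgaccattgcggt
Bax, chr7:45467075-45467114, minus strand: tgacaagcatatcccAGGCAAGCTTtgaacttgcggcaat
Ccng1, chr11:40755447-40755486, minus strand: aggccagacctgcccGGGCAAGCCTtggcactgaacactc
The first matched base lay 73 bases before the start of Cdkn1a, 186 before that of Mdm2, 201 before that of Bax and 185 before that of Ccng1. The windows of Phlda3, Gdf15, Sesn2, Eda2r and Bbc3 held no match to these letters, which says nothing of elements elsewhere in those genes. Trp53inp1 had no window.

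The libraries held 17501180 to 30011557 counts on genes. Mitochondrial genes took 20.67% to 45.09% of the counts in 4 female libraries, saline mouse 3, oil mouse 6, 9527 mouse 11 and 9500+oil mouse 14, and 6.16% to 11.34% in the other 14 female and 5.27% to 7.68% in the 18 male libraries. These 4 libraries stood apart in the members. Lung markers were high throughout, with sums of 9270.5 to 29025.1 CPM (counts scaled to a library of 1000000, on TMM effective library sizes) for the alveolar type 2 cell list, while the liver list summed to at most 13.9 CPM. Results are given with all libraries, and without the 4 where stated.

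In the 4 libraries the members' levels split at about 50% GC, those with more GC being lower on average and those with less higher. Bbc3, with 68% GC in its transcripts, had a mean of 0.326 CPM in the 4 libraries and 11.6 CPM in the other 14 female libraries, a log2 ratio of -5.15. The log2 ratio was -2.66 for Phlda3 (58.4% GC), -2.55 for Bax (59.1% GC) and -2.11 for Sesn2 (58.7% GC). Cdkn1a, at 54.4% GC, had a log2 ratio of -0.57. The 4 members under 50% GC were higher in these libraries, by a log2 ratio of 0.97 for Ccng1 (37.4% GC), 0.95 for Trp53inp1 (40.1% GC), 0.70 for Eda2r (43.7% GC) and 1.38 for Mdm2 (46.3% GC), in no order of GC content among these 4. Eda2r was not higher in each of these libraries, with 2.11 CPM in saline mouse 3 and 2.76 and 3 CPM in the other female saline mice. In saline mouse 3, Bax, Phlda3, Gdf15 and Bbc3 had 0 counts, which allows a level of up to 0.352 CPM for 3 counts by counting error alone. The 4 libraries come from 4 different treatments, so this is a description over libraries and not over conditions.

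**Figure D1:**
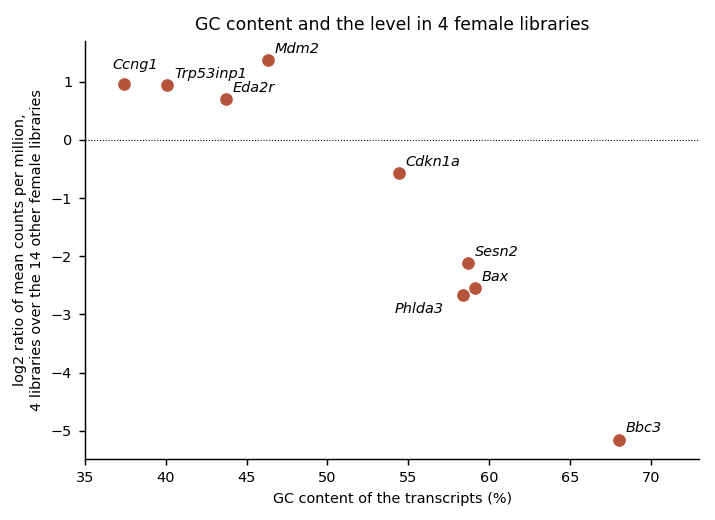
GC content of each member's transcripts (x axis, percent) against the log2 ratio of its mean CPM in the 4 female libraries with over 20% mitochondrial counts over the 14 other female libraries (y axis), one point per gene, without Gdf15, which had 0 counts in all 4. The members under 50% GC lie above 0 and those above 50% GC lie below 0, down to -5.15 for Bbc3.

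Levels between genes were compared per kilobase of median transcript length, a rough scale where a gene has many short transcripts, as Mdm2 has. In male saline mice Cdkn1a was highest, at 99.2 CPM per kb with 65 to 128 over the 3 mice, and its range held that of Mdm2 (mean 82.4, 79.8 to 84.7). Ccng1 followed with 53.2 CPM per kb (50.2 to 55.4), clear of both neighbours. Phlda3 (28 to 42.4 CPM per kb) and Bax (25.7 to 32.7) overlapped, as did Bax with Trp53inp1 (18.4 to 27.4) and Trp53inp1 with Bbc3 (14.5 to 24). Sesn2 (6.81 to 8.1 CPM per kb), Eda2r (1.47 to 2.57) and Gdf15 (0.278 to 1.01) came last in that order, with no overlap between them. In the 2 female saline mice outside the 4 libraries the order was led by Mdm2 (71.6 CPM per kb on average), Ccng1 (42.9) and Cdkn1a (39.7), and the last 2 overlapped.

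**Figure D2:**
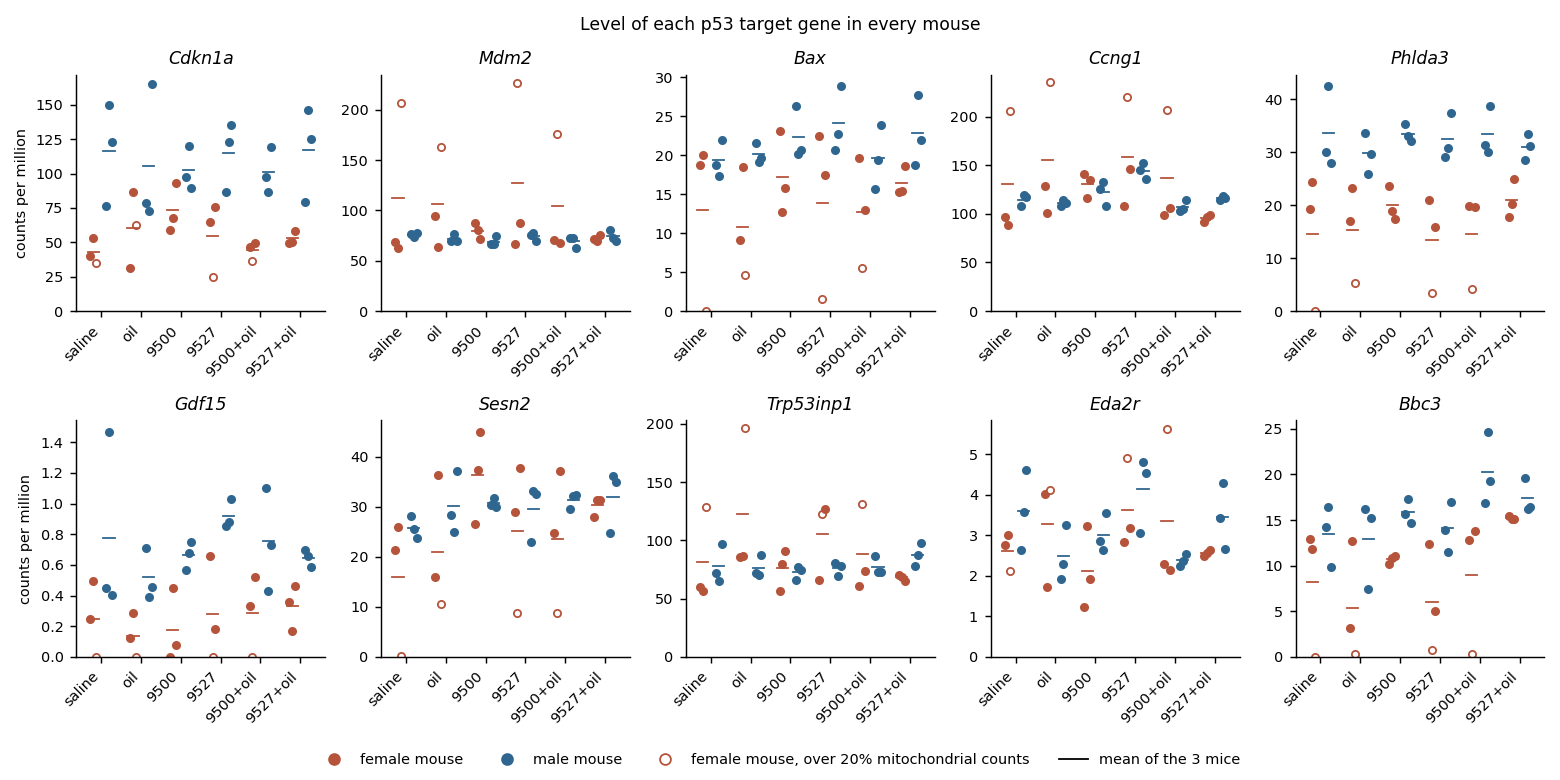
Level of each member in CPM (y axis, linear, from 0) in every mouse by treatment (x axis), red for female and blue for male mice, open circles for the 4 female libraries with over 20% mitochondrial counts and bars for the mean of 3 mice. The open circles lie far from the closed ones for most genes, and outside of them the treatment groups overlap for most members.

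Cdkn1a encodes p21, the inhibitor of cyclin-dependent kinases by which p53 halts the cell cycle. In male mice it had 76.2, 150 and 123 CPM with saline and 86.5, 123 and 135 CPM with Corexit 9527, and the groups overlapped. In female mice the values were 39.7, 53.4 and 34.6 CPM with saline and 64.6, 24.4 and 75.7 CPM with Corexit 9527, where the last saline mouse and the second 9527 mouse (24.4 CPM) are among the 4 libraries. Corexit 9500 gave 59.2, 67.9 and 92.8 CPM in female mice, all above their saline mice, and 97.5, 120 and 89.6 CPM in male mice, all within the range of theirs. Over both sexes the fold change of Cdkn1a was 1.12 for Corexit 9527 (log2 0.17, SE 0.28, 95% interval of the fold 0.736 to 1.72, adjusted p = 1 in edgeR's quasi-likelihood test). It was 1.23 for Corexit 9500 (log2 0.29, SE 0.24, interval 0.848 to 1.77, adjusted p = 0.97) and 1.12 for oil (log2 0.17, SE 0.31, interval 0.703 to 1.79, adjusted p = 1). With 9500+oil it was 0.955 (log2 -0.066, SE 0.19, interval 0.712 to 1.28, adjusted p = 1) and with 9527+oil 1.11 (log2 0.15, SE 0.20, interval 0.815 to 1.51, adjusted p = 0.858). None of these differences over both sexes passed the test with all libraries, and none of their intervals reached a fold of 2. In female mice without the 4 libraries only 2 saline mice remained, and the share of all genes without overlap was not counted. Both remaining Corexit 9527 mice and all 3 Corexit 9500 mice lay above these 2 saline mice, which with so few mice says little. The fold there was 1.51 for Corexit 9527 (log2 0.60, SE 0.21, interval 1.07 to 2.15, unadjusted p = 0.0269, adjusted p = 0.95 in edgeR) and 1.57 for Corexit 9500 (log2 0.65, SE 0.27, interval 1 to 2.47, unadjusted p = 0.0501, adjusted p = 1 in edgeR), and neither passed adjustment. Over both sexes without the 4 libraries it was 1.17 for Corexit 9527 (interval 0.862 to 1.59) and 1.13 for Corexit 9500 (interval 0.809 to 1.59), and the log2 values were 0.053 for oil, -0.10 for 9500+oil and 0.078 for 9527+oil.

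Between the dispersants, Cdkn1a in Corexit 9527 mice was 0.916 times that in Corexit 9500 mice (log2 -0.13, SE 0.26, interval 0.617 to 1.36, adjusted p = 0.887). In 9527+oil mice it was 0.992 times that in Corexit 9527 mice (log2 -0.011, SE 0.25, interval 0.68 to 1.45, adjusted p = 0.981), and in 9500+oil mice 0.774 times that in Corexit 9500 mice (log2 -0.37, SE 0.18, interval 0.59 to 1.02, adjusted p = 0.999). Leaving out the 4 libraries gave log2 values of 0.061, -0.17 and -0.27 in that order. The log2 fold change with Corexit 9500 was lower in male than in female mice by 0.96 (log2 -0.96, unadjusted p = 0.0398), which did not pass adjustment (adjusted p = 1 in edgeR's test of the interaction). It was -0.92 with DESeq2, -0.84 without the 4 libraries and -0.32 with a GC-content offset. Cdkn1a ran higher in male mice (72.9 to 165 CPM over 18 mice) than in the other 14 female libraries (31.4 to 92.8 CPM), given as a description without a test. Each sex has its own table, scaled on its own, so sex and table cannot be told apart.

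Mdm2, the ubiquitin ligase of p53, was the steadiest member in male mice, with 63 to 80.2 CPM over 18 mice and a coefficient of variation of 6.18%. Male saline mice had 76.2, 73.3 and 77.8 CPM and male Corexit 9527 mice 75.4, 77.5 and 69.9 CPM, which overlapped. In female mice it lay between 62.6 and 94.5 CPM in the other 14 libraries and between 163 and 227 CPM in the 4 libraries, so a group's mean depended on whether it held one of them. The fold change over both sexes was 1.04 for Corexit 9527 (log2 0.06, SE 0.36, interval 0.607 to 1.79, adjusted p = 1), 0.8 for Corexit 9500 (log2 -0.32, SE 0.27, interval 0.533 to 1.2, adjusted p = 0.97) and 0.935 for oil (log2 -0.098, SE 0.31, interval 0.583 to 1.5, adjusted p = 1). For 9500+oil it was 0.928 (log2 -0.11, SE 0.32, interval 0.572 to 1.5, adjusted p = 1) and for 9527+oil 0.789 (log2 -0.34, SE 0.28, interval 0.519 to 1.2, adjusted p = 0.832). No treatment moved Mdm2 past the test, and the sign for oil, Corexit 9500 and 9527+oil turned without the 4 libraries, to log2 values of 0.067, 0.052 and 0.045. Against Corexit 9500, Corexit 9527 gave a log2 fold change of 0.38 (SE 0.27, adjusted p = 0.794), 9500+oil 0.20 (SE 0.22, adjusted p = 0.999), and 9527+oil gave -0.40 against Corexit 9527 (SE 0.28, adjusted p = 0.471). These 3 log2 values were 0.03, -0.089 and -0.041 without the 4 libraries.

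Ccng1, which encodes cyclin G1, a p53-induced cyclin that recruits a phosphatase to Mdm2, had the smallest p of the members for Corexit 9527 in male mice. In male mice it had 108, 119 and 117 CPM with saline and 145, 152 and 136 CPM with Corexit 9527. Every male Corexit 9527 mouse lay above every male saline mouse. The fold change in male mice was 1.26 (log2 0.33, unadjusted p = 0.00618), and it did not pass adjustment in edgeR's test (adjusted p = 0.172), whereas DESeq2 gave an adjusted p of 0.0396, with a range of 0.0396 to 0.391 over the alternatives. In female mice saline gave 96.3, 88.9 and 206 CPM and Corexit 9527 gave 108, 220 and 146 CPM, where 206 and 220 CPM belong to the 4 libraries. The groups of female mice overlapped with these 2 libraries and did not overlap without them, where 2 mice remained in each. So few mice say little of a lack of overlap, and its share over all genes was not counted. Over both sexes without the 4 libraries the fold change was 1.3 (log2 0.38, SE 0.09, interval 1.14 to 1.5, adjusted p = 0.0525 in edgeR), just short of the threshold. With all libraries edgeR gave a log2 fold change of 0.29, which ran from 0.16 without female 9527 mouse 11 to 0.53 without female saline mouse 3, and with sample quality weights limma's voom gave a fold of 1.28 (log2 0.36, adjusted p = 0.0157).

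When oil was added to Corexit 9527, Ccng1 lay near saline levels. The 9527+oil mice had 114, 118 and 116 CPM in males and 91.2, 97.2 and 99.2 CPM in females, below every Corexit 9527 mouse of their sex. Against Corexit 9527 the log2 fold change over both sexes was -0.51 with all libraries (unadjusted p = 0.00874, adjusted p = 0.235 in edgeR, 0.0146 to 0.936 over the alternatives). It was -0.037 with a GC-content offset and -0.59 to -0.33 under the other alternatives. Without the 4 libraries it was -0.36 (SE 0.078, fold 0.779, interval 0.692 to 0.876, adjusted p = 0.0206), and Ccng1 fell by the test. This was the only member called in any of the 8 comparisons over both sexes without the 4 libraries. Against saline, 9527+oil gave a fold of 1.02 without the 4 libraries (interval 0.934 to 1.11, adjusted p = 0.892), and Corexit 9500 gave 1.21 (interval 1.03 to 1.42, unadjusted p = 0.0249, adjusted p = 0.827). With all libraries these folds were 0.856 for 9527+oil (interval 0.63 to 1.16) and 1.03 for Corexit 9500 (interval 0.759 to 1.39), so both values rest on leaving out the 4 libraries.

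Markers of several cell types and cell cycle genes moved with Ccng1. The sum of 6 macrophage markers was 640 to 809 CPM in male saline, 854 to 1645.9 CPM in male Corexit 9527 and 549 to 825 CPM in male 9527+oil mice, and 696 to 863, 1194.8 to 2189.1 and 441 to 511 CPM in the female groups in the same order. Among the 6, Marco, Mrc1 and Cd68 were higher in every male Corexit 9527 than in every male saline mouse, while Chil3, Siglecf and Ear2 overlapped. In female mice Chil3 alone did not overlap. Between Corexit 9527 and saline, 20.1% of all genes did not overlap in male and 4.03% in female mice. Between Corexit 9527 and 9527+oil mice this share was not counted. Across mice, Ccng1 had a Pearson r of 0.71 over 18 male and 0.64 over the other 14 female mice with the mean log2 CPM of 16 cell cycle genes, and of 0.67 and 0.57 with the log2 macrophage sum, as a description over libraries that share treatments and normalization. Other lists were lower with Corexit 9527 in male mice. The skeletal muscle list, at low levels, was 4.28 to 4.78 CPM in male saline and 1.29 to 2 CPM in male Corexit 9527 mice. It spread from 1.22 to 5.48 CPM in male 9527+oil mice, and the female groups overlapped. The sum of 4 endothelium markers was 3014.5 to 3722.8 CPM in male saline, 2694.2 to 2706.5 CPM in male Corexit 9527 and 3077.1 to 3254.9 CPM in male 9527+oil mice, and 1826.2 to 2883, 1907.9 to 2274.6 and 2877.7 to 3303.6 CPM in the female groups in that order. The sum of 3 club cell markers was 19635.7 to 24814.1, 14782.4 to 17996.5 and 19785.7 to 22879.7 CPM in the male groups, lower in every Corexit 9527 mouse, while the female groups overlapped. The neutrophil list was also lower in male Corexit 9527 mice (115 to 269 CPM) than in male saline mice (274 to 307 CPM), and male 9527+oil mice spread from 267 to 1366.6 CPM with a median of 1022.6. Female saline (143 to 201 CPM) and Corexit 9527 mice (59.9 to 151 CPM) overlapped in it, and female 9527+oil mice had 151 to 172 CPM. In female mice the sum of 4 ciliated cell markers was lower with Corexit 9527 (127 to 141 CPM) than with saline (145 to 174 CPM) or 9527+oil (190 to 200 CPM), while the male groups overlapped. The fibroblast list did not overlap between male Corexit 9527 (1611.2 to 2005.7 CPM) and male 9527+oil mice (1475.2 to 1528.5 CPM) and overlapped in the other pairs of these groups with Corexit 9527. The part of these cell types or of dividing cells in the Ccng1 difference was not tested.

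**Figure D3:**
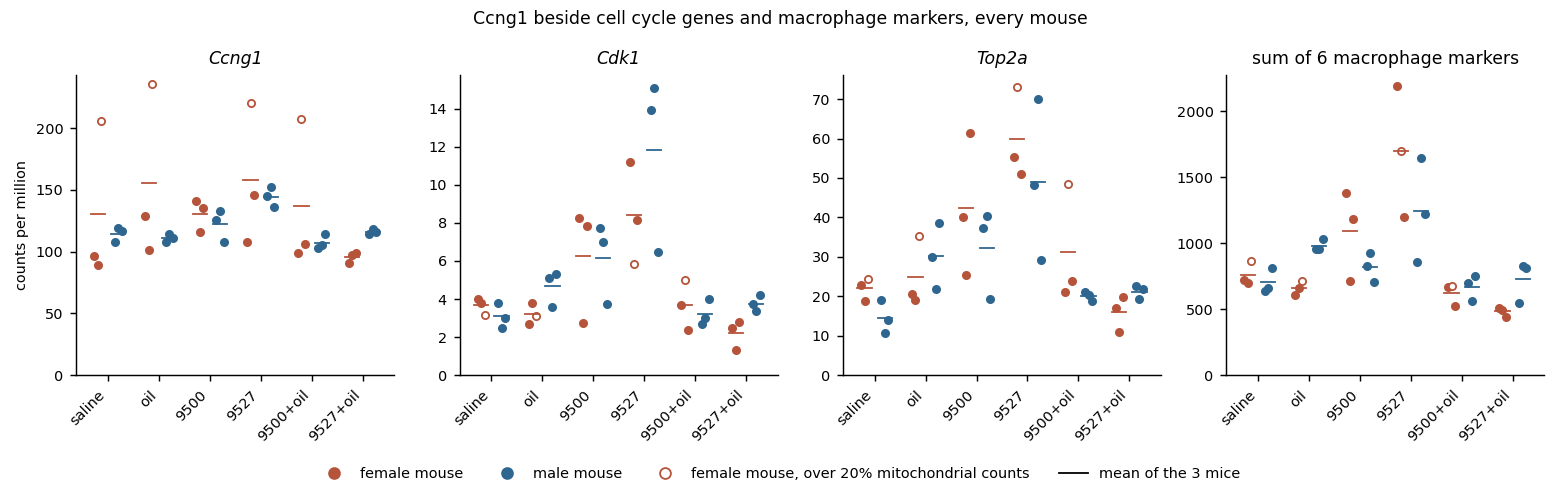
Ccng1, the cell cycle genes Cdk1 and Top2a, and the sum of 6 macrophage markers, in CPM (y axes, linear, from 0), in every mouse by treatment, with red for female mice, blue for male mice, open circles for the 4 female libraries with over 20% mitochondrial counts and bars for the mean of 3 mice. In all 4 panels every Corexit 9527 mouse lies above every 9527+oil mouse of its sex.

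Of the members that limit damage or growth, Sesn2 (sestrin 2, which restrains mTORC1 under stress) had the highest log2 fold change of the members in each of the 5 comparisons with saline over both sexes, from 0.31 for oil to 0.71 for Corexit 9500, where saline mouse 3, with 0.234 CPM, is among the female saline mice. Without the 4 libraries Sesn2 was the highest member for Corexit 9500 alone (log2 0.42), and the highest was Trp53inp1 for oil (0.21), Ccng1 for Corexit 9527 (0.38) and Bbc3 for 9500+oil (0.40) and 9527+oil (0.34). In male mice it had 28.1, 25.6 and 23.7 CPM with saline, 30.3, 31.8 and 29.9 CPM with Corexit 9500, and 29.5, 32.2 and 32.3 CPM with 9500+oil. Both treated groups lay above every male saline mouse. The log2 fold change in male mice was 0.25 for Corexit 9500 (unadjusted p = 0.0351, adjusted p = 0.782) and 0.28 for 9500+oil (unadjusted p = 0.0265, adjusted p = 0.515). In the 2 female saline mice outside the 4 libraries it had 21.3 and 26 CPM, in Corexit 9500 mice 26.6, 37.3 and 45 CPM and in 9527+oil mice 28, 31.3 and 31.4 CPM. Over both sexes without the 4 libraries edgeR gave a fold of 1.33 for Corexit 9500 (interval 1.08 to 1.65, adjusted p = 0.778), 1.25 for Corexit 9527 (1.02 to 1.53, adjusted p = 0.268), 1.26 for 9500+oil (1.06 to 1.5, adjusted p = 0.699), 1.25 for 9527+oil (1.07 to 1.47, adjusted p = 0.381) and 1.15 for oil (0.853 to 1.55, adjusted p = 1). Of these, the unadjusted p was 0.0116, 0.0336, 0.0148 and 0.00824 for the dispersant treatments in that order and 0.327 for oil. None passed adjustment, and the 5 comparisons share their saline mice, so they are not separate evidence.

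Phlda3, an inhibitor of Akt, ran from 25.9 to 42.5 CPM in male mice and from 15.8 to 24.9 CPM in the other 14 female libraries, and its treatment groups overlapped with saline in both sexes. Gdf15, a secreted stress cytokine, was near the limit of the data, with 7 to 28 counts per male and 0 to 22 counts per female library. Its level was 0.391 to 1.47 CPM in male mice, and it was tested in 8 of the 15 comparisons with saline. Male Corexit 9527 mice had 0.851, 0.877 and 1.03 CPM, within the male saline values of 0.448, 1.47 and 0.406 CPM. The fold there was 1.2 with an interval of 0.49 to 2.93, and for 9527+oil over both sexes without the 4 libraries it was 0.861 with an interval of 0.457 to 1.62, so that changes within these bounds could not be told from none.

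Among the members that promote cell death, Bax and Bbc3 act at mitochondria, Eda2r is a receptor of the TNF receptor family, and Trp53inp1 encodes a stress-induced cofactor of p53. Bbc3 (PUMA) had 14.2, 16.4 and 9.89 CPM in male saline and 16.9, 24.7 and 19.3 CPM in male 9500+oil mice, which did not overlap. Its log2 fold change there was 0.59 (unadjusted p = 0.0195, adjusted p = 0.506, 0.268 to 0.939 over the alternatives). Without the 4 libraries Bbc3 was also 1.26 times saline in 9527+oil mice (interval 1.06 to 1.51, unadjusted p = 0.0141, adjusted p = 0.397), against 1.53 with all libraries (interval 0.598 to 3.9). Bax lay between 15.6 and 28.9 CPM in male mice, with 18.7, 17.3 and 22 CPM with saline and 20.7, 22.7 and 28.9 CPM with Corexit 9527, which overlapped. Eda2r lay between 1.93 and 4.82 CPM in male mice, and its 9500+oil mice, with 2.25, 2.36 and 2.55 CPM, lay below the saline mice, with 2.64, 3.57 and 4.61 CPM, as did Mdm2 in the same comparison with 72.8, 72.4 and 63 CPM. For Eda2r the fold over both sexes was 0.917 with all libraries (interval 0.56 to 1.5) and 0.705 without the 4 (interval 0.53 to 0.938, unadjusted p = 0.0205, adjusted p = 0.699). Trp53inp1 ran from 65.2 to 97.3 CPM in male mice and, in female mice outside the 4 libraries, had 60 and 56.4 CPM with saline and 66.3 and 127 CPM with Corexit 9527. With oil, the 2 female mice outside the 4 libraries had 85.5 and 86.5 CPM (log2 0.57 against saline, unadjusted p = 0.017, adjusted p = 1 without the 4 libraries). The same fit gave Trp53inp1 a log2 fold change of 0.74 for Corexit 9527 (interval of the fold 1.01 to 2.76, unadjusted p = 0.0463, adjusted p = 0.977) and of 0.23 for 9527+oil (unadjusted p = 0.0455, adjusted p = 0.401) in female mice. With the 4 libraries kept, its female means were 81.7 CPM with saline, 106 CPM with Corexit 9527 and 68.1 CPM with 9527+oil. The direction of the means for 9527+oil thus turned when the saline library among the 4 was left out.

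With all libraries, 0 of the members passed an adjusted p of 0.05 in any of the 23 comparisons in edgeR. Beside this, the share of all genes called was 0% over both sexes for oil, Corexit 9500, 9500+oil, 9527+oil, Corexit 9527 against Corexit 9500 and 9500+oil against Corexit 9500, 0.0331% for Corexit 9527 and 0.579% for 9527+oil against Corexit 9527. Within female mice it was 0% for each treatment, and within male mice 0.00671% for oil, 0.00662% for Corexit 9500, 0.114% for Corexit 9527, 0% for 9500+oil and 0.00669% for 9527+oil. It was 0% for each of the 5 sex differences. With DESeq2, Ccng1 passed in male Corexit 9527 mice, where 3.15% of all genes did, and no member passed for Corexit 9527 over both sexes (0.68% of genes) or for 9527+oil against Corexit 9527 (3.51%). With voom, Ccng1 passed in both of these, where 5.37% and 10.4% of genes did. Without the 4 libraries edgeR called 2.25% of genes for Corexit 9527, no member among them, and 6.82% for 9527+oil against Corexit 9527, with Ccng1, and 0% for the other 6 comparisons over both sexes.

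At an unadjusted p under 0.05 with all libraries, the members gave 1 call in 9527+oil against Corexit 9527 (Ccng1, 14.2% of all genes) and 0 in the other comparisons over both sexes, where the shares of all genes were 0.435% for oil, 2.26% for Corexit 9500, 2.87% for Corexit 9527, 0.391% for 9500+oil, 2.94% for 9527+oil, 3.31% for Corexit 9527 against Corexit 9500 and 1.95% for 9500+oil against Corexit 9500. In female mice they gave 0 calls, beside 0.108% of genes for oil, 0.364% for Corexit 9500, 0.267% for Corexit 9527, 0.155% for 9500+oil and 1.1% for 9527+oil. In male mice they gave 0 for oil (8.21% of genes), 1 for Corexit 9500 (6.35%), 1 for Corexit 9527 (13.7%), 2 for 9500+oil (9.22%) and 0 for 9527+oil (5.54%). Of the sex differences, that of Corexit 9500 had 1 call (0.726% of genes), Cdkn1a, and those of oil (1.65% of genes), Corexit 9527 (0.352%), 9500+oil (0.509%) and 9527+oil (2.39%) had 0. With 9 or 10 members tested, the counts in male mice lie near the shares of all genes.

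Without the 4 libraries the counts at an unadjusted p under 0.05 were 0 of 10 members for oil (2.52% of genes), 2 for Corexit 9500 (5.65%), 2 for Corexit 9527 (15.7%), 3 for 9500+oil (7.1%), 2 for 9527+oil (10.6%), 0 for Corexit 9527 against Corexit 9500 (5.15%), 2 for 9527+oil against Corexit 9527 (25.8%) and 2 for 9500+oil against Corexit 9500 (3.28%). Sesn2 was among them for all 4 treatments with a dispersant against saline. The calls in the mixtures against their dispersant alone were Bbc3 and Ccng1, of which only Ccng1 in 9527+oil passed adjustment. Bbc3 had log2 values of 0.51 for 9527+oil (adjusted p = 0.143) and 0.34 for 9500+oil (adjusted p = 0.999), against 0.80 and 0.061 with all libraries. For 9500+oil, Ccng1 had -0.26 (adjusted p = 0.999), against -0.059 with all libraries. Within female mice without the 4 libraries the counts were 1 for oil (Trp53inp1, 0.959% of genes), 1 for Corexit 9500 (1.64%), 2 for Corexit 9527 (Cdkn1a and Trp53inp1, 4.98%), 0 for 9500+oil (1.24%) and 3 for 9527+oil (12.3%). The call for Corexit 9500 was Ccng1 (log2 0.50, adjusted p = 1), and those for 9527+oil were Trp53inp1, Sesn2 (log2 0.36, adjusted p = 0.363) and Bbc3 (log2 0.30, adjusted p = 0.398). None of them passed adjustment, beside 0.0132% of genes for 9527+oil and 0% for the other 4 treatments. With all libraries Sesn2 had a log2 value of 0.93 for 9527+oil in female mice. The female means of Ccng1 were then 130 CPM with saline and 131 CPM with Corexit 9500. Those of Bbc3 were 8.23 CPM with saline and 15.2 CPM with 9527+oil. The size of these differences thus depends on the saline library among the 4. The sex differences without the 4 libraries gave other calls, with 1 for oil (5.98% of genes), 1 for Corexit 9500 (1.96%), 1 for Corexit 9527 (2.81%) and 0 for 9500+oil (2.63%) and 9527+oil (6.73%). Cdkn1a was no longer among them (unadjusted p = 0.0527), and they were Mdm2 for Corexit 9500 (log2 -0.42, unadjusted p = 0.0326, adjusted p = 1, with a log2 of 0.37 with all libraries), Trp53inp1 for oil (log2 -0.60, unadjusted p = 0.032, adjusted p = 0.771) and Trp53inp1 for Corexit 9527 (log2 -0.78, unadjusted p = 0.0475, adjusted p = 0.999), each with the lower log2 fold change in male mice. No member passed adjustment, beside 0.00642% of genes for oil, 0.0064% for 9527+oil and 0% for the other 3. With all libraries the unadjusted p of Trp53inp1 in edgeR was 0.461 for Corexit 9527, and no member was under 0.188 for oil. Treated and saline mice of a sex did not overlap for 2 of 9 members in female Corexit 9500 (6.46% of genes) and 2 of 9 in female 9527+oil mice (17.9%), and for 0 of 9 with oil (3.92%), Corexit 9527 (4.03%) and 9500+oil (2.24%). In male mice they did not overlap for 0 of 9 with oil (12.8%), 1 of 10 with Corexit 9500 (11.7%), 1 of 10 with Corexit 9527 (20.1%), 4 of 10 with 9500+oil (15.5%) and 0 of 10 with 9527+oil (11.8%). The 4 in male 9500+oil mice were Sesn2 and Bbc3, higher, and Mdm2 and Eda2r, lower.

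**Figure D4:**
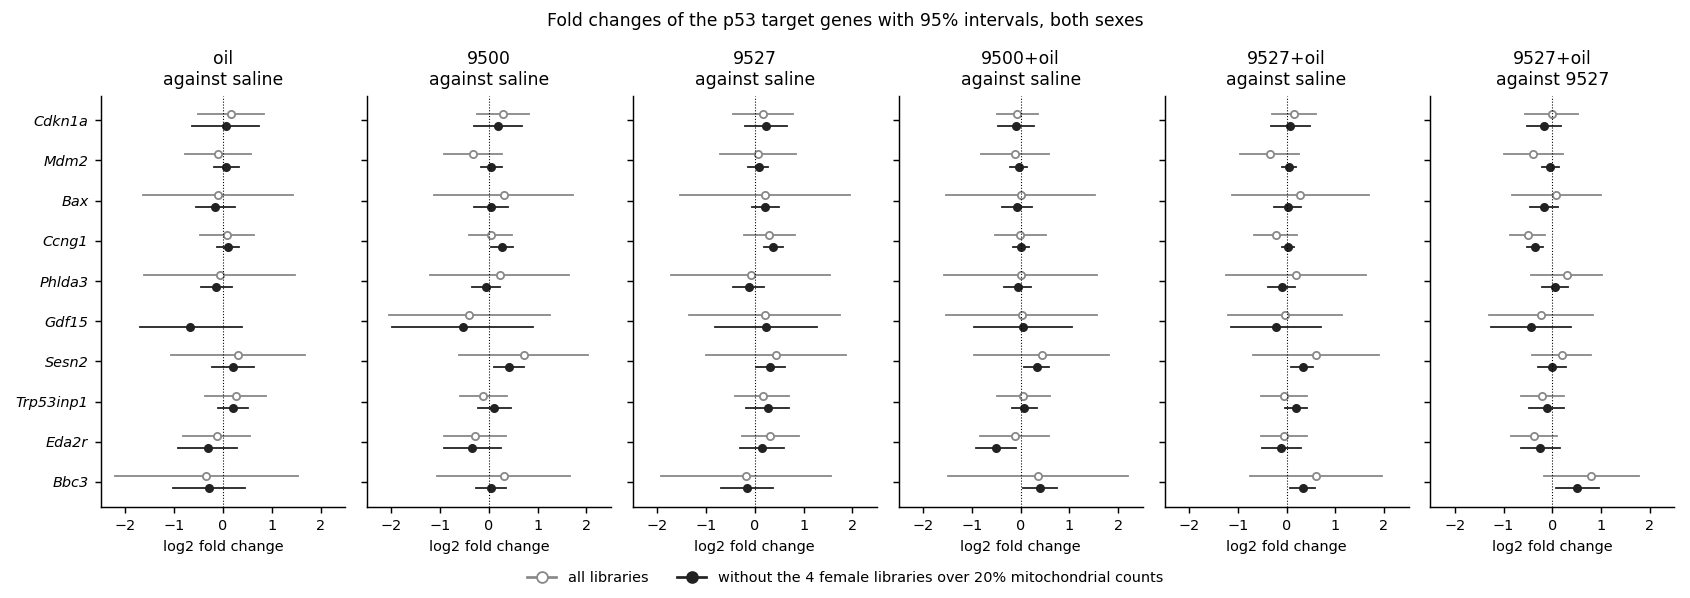
Log2 fold changes of the members (points) with 95% intervals (lines) over both sexes, for the 5 treatments against saline and for 9527+oil against Corexit 9527, with all libraries (grey, open) and without the 4 female libraries with over 20% mitochondrial counts (black, filled). Of the intervals drawn both ways, all but that of Cdkn1a for oil are narrower without the 4 libraries, and those clear of 0 then are Sesn2 in the 4 dispersant treatments, Ccng1 for both dispersants alone, Bbc3 for both mixtures and Eda2r (below 0) for 9500+oil against saline, and Ccng1 (below 0) and Bbc3 in 9527+oil against Corexit 9527.

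In each comparison with saline over both sexes, members lay on both sides of 0. Over both sexes their median log2 fold change was 0.19 for Corexit 9527, with 8 of 10 above 0, against a median of 0.01 over all genes tested. It was 0.13 for Corexit 9500 (0.029 over all genes), -0.064 for oil (0.0064), -0.00032 for 9500+oil (0.037) and 0.058 for 9527+oil (0.034). Across the other 14 female mice the median Pearson r over the 45 pairs of members was 0.01, and over the 18 male mice it was 0.12, with 23 and 30 pairs above 0. The highest was Cdkn1a with Sesn2 in female mice (0.87; 0.54 in male mice), and the lowest Mdm2 with Bbc3 in female mice (-0.76; -0.43 in male mice). Mdm2 and Ccng1 went together in female mice (0.75) and not in male mice (0.02).

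The genes whose pattern across mice was most like that of Cdkn1a, by the lower of the Pearson r over 14 female and over 18 male mice among 15258 genes, were Sema7a (0.84 in female, 0.83 in male mice), Fkbp5 (0.80 and 0.78), Tspan11 (0.75 and 0.86), AA986860 (0.71 and 0.74) and Pmvk (0.85 and 0.70). None of them is a member. The nearest member was Sesn2, at rank 67, followed by Bax at rank 515, while Mdm2 stood at rank 12220 with r of -0.20 and -0.33.

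Other genes were read from lists of p53 regulators, other targets, cell cycle genes and the integrated stress response, which also induces Gdf15 and Sesn2. Of 16 p53 regulators, 15 were tested for Corexit 9527 against saline over both sexes and 0 were called, with a median log2 fold change of 0.017. The 3 with the smallest p were Chek1, a checkpoint kinase that acts on stalled replication forks (log2 1.18, SE 0.51, adjusted p = 1), Trp73 (-0.34, SE 0.25, adjusted p = 1) and Atr (0.37, SE 0.29, adjusted p = 1). Chek1 rose without the 4 libraries (log2 1.73, SE 0.31, adjusted p = 0.0178). Trp53 itself had 64.1 to 76.4 CPM in male saline and 74 to 88.8 CPM in male Corexit 9527 mice, which overlapped. Of the 42 other p53 targets measured, 0 were called and the median was 0.094. Ckap2 (log2 1.39, SE 0.32, adjusted p = 0.39) and Psrc1 (1.27, SE 0.42, adjusted p = 1), both of which act at mitotic microtubules, and Igfbp3 (-0.76, SE 0.30, adjusted p = 1) had the smallest p. Without the 4 libraries Ckap2 and Psrc1 rose (log2 1.48 and 1.33, adjusted p = 0.00597 and 0.019) and Igfbp3 fell (log2 -1.07, adjusted p = 0.00661), and these 3 were the only other targets called there.

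The list of cell cycle genes held members of the p53 pathway and general genes of dividing cells, such as Mki67 and Top2a. Many of these genes are repressed by p53 through Cdkn1a. Their medians lay farther from 0 than those of the members in these comparisons. For Corexit 9527 against saline their median log2 fold change was 1.37 over 16 genes, with 13 above 0 and 10 at an unadjusted p under 0.05, and 0 passed adjustment in edgeR with all libraries, 10 without the 4 libraries, 5 with DESeq2 and 11 with voom. Cdk1, the kinase of mitosis, had 2.47 to 3.78 CPM in male saline and 6.47 to 15.1 CPM in male Corexit 9527 mice, a log2 fold change over both sexes of 1.56 (SE 0.29, adjusted p = 0.208). Top2a, the topoisomerase of dividing cells, had 10.7 to 19.1 and 29.1 to 70.1 CPM in these groups (log2 1.59, SE 0.24, adjusted p = 0.0687), and neither gene overlapped between the groups. In 9527+oil mice against Corexit 9527 mice 6 of the 16 fell, with a median of -1.34 over the list, and these were Ccnb1 (log2 -1.80, adjusted p = 0.019), Birc5 (-1.46, 0.0223), Top2a (-1.55, 0.026), Cdk1 (-1.78, 0.026), Mki67 (-1.48, 0.0262) and Rrm2 (-1.38, 0.0262). This count was 12 without the 4 libraries and without female 9527 mouse 11 alone, and 0 to 2 without any other single mouse of these groups but male 9527 mouse 12. For Corexit 9500 the list's median was 0.71 and for 9500+oil against Corexit 9500 it was -0.58, with 0 of 16 called in either. The 6 genes act in DNA replication or mitosis, and the members' median for 9527+oil against Corexit 9527 was -0.11.

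**Figure D5:**
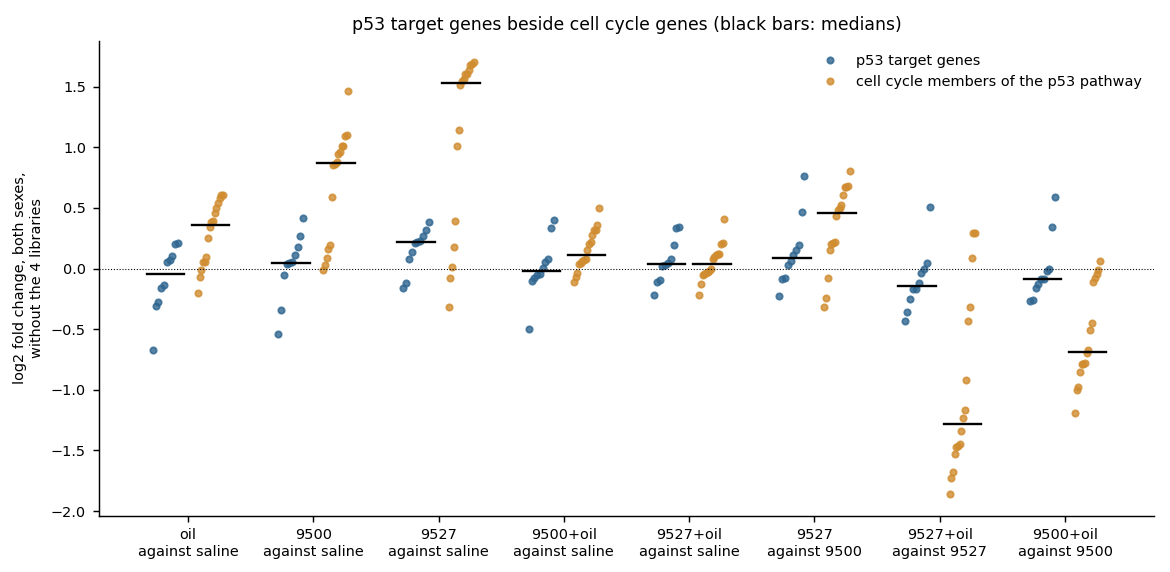
Log2 fold changes over both sexes without the 4 libraries (y axis) for the 10 members (blue) and the 16 cell cycle genes (orange) in 8 comparisons (x axis), one point per gene, with black bars for medians. The legend names the orange list cell cycle members of the p53 pathway, though it also holds general genes of dividing cells. The cell cycle list has medians of 1.53 for Corexit 9527 against saline and -1.28 for 9527+oil against Corexit 9527, where the members have 0.22 and -0.15.

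Of 11 integrated stress response genes, 0 were called for Corexit 9527 with all libraries and the median log2 fold change was -0.22. The 3 with the smallest p were Psat1, an enzyme of serine synthesis (log2 0.96, SE 0.33, adjusted p = 1), Ddit3 (-0.39, SE 0.21, adjusted p = 1) and Atf4 (-0.25, SE 0.17, adjusted p = 1). Psat1 rose without the 4 libraries (log2 1.14, adjusted p = 0.0495), and Ddit3 and Atf4, the transcription factors of this response, kept log2 values of -0.36 and -0.24. Differences between the member and cell cycle lists were not tested.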

How the data were processed

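The authors deposited expected counts in rows named by gene symbol, without normalization, in one table for female and one for male mice. The methods of the study give Salmon with the GRCm38 mouse transcriptome and a tximport matrix of transcript identifiers. How its rows came to carry gene symbols is not given in the sources used here, and each row was read as the count of a gene. These estimated counts were already whole numbers. Samples were grouped by the sex and treatment of their labels, and mice are separate animals. The 4 rows of each table that share a name with another row were left out. Of 18691 names, 17813 (95.3%) matched GENCODE M21, which gave positions, GC content and length.

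Genes were tested with edgeR 4.0.16 (quasi-likelihood test, TMM, filterByExpr, Benjamini-Hochberg adjustment over all genes tested) in R 4.3.3, with sex as a covariate over both sexes. DESeq2 1.42.0, limma 3.58.1 (voom with sample quality weights), other scalings, a GC-content offset, other filters, all 6 groups in 1 fit, no sex term, the libraries under 20% mitochondrial counts alone and each mouse left out in turn were the alternatives, with the mouse number as a block for the sex differences added after the data were seen. Standard errors are the log2 fold change over the square root of F, and log2 CPM used a prior count of 2. The fits were tested on simulated data. Those counts carried no GC or mitochondrial bias of single libraries, so that test does not bear on the 4 female libraries with over 20% mitochondrial counts. With all libraries each comparison held 3 or 6 mice per group, and fewer where libraries or a mouse were left out. Intervals and limits of a 0 cover counting error or the spread between mice only.

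The members and lists were chosen with earlier results of these data known. Levels are given for all 10 members, and fold changes for Cdkn1a and Mdm2 over both sexes and for members with an unadjusted p under 0.05. From each other list the genes with an adjusted p under 0.05, or else the 3 with the smallest p for Corexit 9527 over both sexes, are named, with the 5 genes most like Cdkn1a. Values of other members and of Trp53 were chosen after they were seen.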

Additional observations from a re-analysis of the deposited data

How the results depend on the processing

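Over 36 mice left out in turn and the other settings, 380 of 405 counts of genes called and 328 of 339 medians stayed near their main value, and 36 of 1068 fold changes of named genes turned. Of the members, 1 was called with voom for Corexit 9527 over both sexes, 1 with DESeq2 for Corexit 9527 in male mice, and 1 with voom, 1 without the 4 female libraries and 0 to 1 with a mouse left out for 9527+oil against Corexit 9527, against 0 in each main fit. The cell cycle count for Corexit 9527 was 5 with DESeq2, 11 with voom, 1 with at least 10 counts in every mouse, 8 with all 6 groups in 1 fit, 10 without the 4 libraries and 0 to 1 with a mouse left out, against 0, and for 9527+oil against Corexit 9527 it was 11 with voom, 12 without the 4 libraries and 0 to 12 with a mouse left out, against 6. The members' median log2 fold change with at least 10 counts in every mouse was -0.11 for Corexit 9500 over both sexes, -0.11 for Corexit 9500 in female and -0.27 for 9527+oil in female mice, where that filter removes members near 0 in the 4 libraries. With voom it was -0.30 for oil in female and 0.03 for Corexit 9527 in male mice. With a mouse left out it ran from 0.076 to 0.72 (Corexit 9500) and -0.034 to 0.40 (9500+oil) in female mice, and from -0.10 to 0.13 (Corexit 9500), 0.0021 to 0.23 (Corexit 9527) and -0.026 to 0.12 (9527+oil) in male mice.

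Cdkn1a, on the log2 scale, turned to -0.023 (GC-content offset) and -0.061 (voom) for oil, to -0.043 for Corexit 9500 and -0.21 for 9527+oil (GC-content offset), to 0.035 (GC-content offset) and 0.061 (without the 4 libraries) for Corexit 9527 against Corexit 9500, and to 0.051 (voom) and 0.001 (at least 10 counts) for 9527+oil against Corexit 9527. That of Mdm2 turned to 0.017 (voom) and 0.067 (without the 4 libraries) for oil, 0.052 (without the 4) for Corexit 9500, -0.034 (GC-content offset) for Corexit 9527, 0.017 (voom) and 0.045 (without the 4) for 9527+oil, and -0.049 (voom) and -0.089 (without the 4) for 9500+oil against Corexit 9500. With a mouse left out, Cdkn1a ran from -0.03 to 0.30 for oil, -0.15 to 0.052 for 9500+oil, -0.22 to 0.061 for Corexit 9527 against Corexit 9500 and -0.17 to 0.12 for 9527+oil against Corexit 9527. Mdm2 ran from -0.29 to 0.27 for oil, -0.43 to 0.052 for Corexit 9500, -0.27 to 0.40 for Corexit 9527, -0.37 to 0.22 for 9500+oil, -0.44 to 0.045 for 9527+oil and -0.089 to 0.28 for 9500+oil against Corexit 9500. Ccng1 in 9527+oil against Corexit 9527 kept its sign but shrank to -0.037 with the GC-content offset, against -0.51. The cause was not tested. The treatments compared share no mouse numbers, so only the sex differences could take the number as a replicate block, an alternative chosen after seeing the data. The animals differ, and the deviations of same-numbered female and male mice from their group means correlated by -0.38 to 0.23 (over 0.1 in 6 of 18 pairs, and 8 of 18 female mice correlated best with their own number), so the number was not taken as a pairing. The block left 0 members called in each sex difference, and Cdkn1a for Corexit 9500 at -0.91.

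With 3 mice per sex and group, the median standard error of the members was 0.51 to 0.70 on the log2 scale in female mice with all libraries and 0.15 to 0.17 in male mice. It was 0.13 to 0.34 in female mice without the 4 libraries, where the saline, oil, Corexit 9527 and 9500+oil groups held 2 mice. Changes of that size are within the error.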
